A study of Mus musculus with 18 samples.

Results

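The miRNA precursors mmu-mir-192, mmu-mir-194 and mmu-mir-215 were followed in Baf3, a line of mouse pro-B cells kept in interleukin-3, after Cas9 targeting of genes that act in miRNA processing. They make up 3 of the 1006 precursors in the deposited counts and were chosen by locus: they belong to a pair of clusters with 2 hairpins each, and the clusters share the row mir-194. The group was picked on measured values of mir-192, whose level differed from the control to unlike extents in the knockouts. Those differences between genotypes are therefore given as a description of mir-192 and its neighbours, without p-values. Of the 3 members, mir-192 and mir-194 passed the filter on low counts, and mir-215 did not.

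All cells carried fluorescent reporters for mutated miR-15a and miR-16 and were transduced with Cas9 and a guide RNA. Control cells (Rag1_KO in the labels) had a guide to Rag1, a gene with no part in miRNA biogenesis. The group called SAFB here (Safb1 KO, Safb2 KO) had a guide to both Safb genes, and the group called ERH (Erh KO) a guide to Erh. Each genotype comprised 2 guide populations with 3 libraries each, 1 from each labelled batch, so n was 6 libraries per genotype and 3 per population. The populations were polyclonal, without further treatment. Sorting selected for derepression of the miR-15a reporter, so loss of miR-15a activity was a condition of entering the knockout groups; how control cells were sorted is not given in the sources used here. The labels do not say that libraries of a population came from separate cultures, so p-values measure the spread between libraries, and only 2 independently edited populations stand behind each genotype.

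Most animal miRNAs are cut from long primary transcripts by Microprocessor, made of the nuclease Drosha and its partner Dgcr8. A hairpin that Microprocessor cuts poorly can depend on a well cut hairpin beside it on the same transcript, which is called cluster assistance, and SAFB proteins and ERH are factors of that process. miR-192, miR-194 and miR-215 are best known from liver, intestine and kidney, where they are abundant, and as miRNAs induced by p53. miR-192 and miR-215 have the same seed, the bases that pair with target mRNAs, whereas miR-194 has another.

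The mature sequences are shown because they decide which reads can be told apart. They are from RefSeq on build GRCm38.p6, with the seed (bases 2 to 8) in capitals.
mmu-miR-192-5p: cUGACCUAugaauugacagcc
mmu-miR-215-5p: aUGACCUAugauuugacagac
mmu-miR-194-5p: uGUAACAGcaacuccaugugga
miR-192-5p and miR-215-5p have 18 of 21 bases in common and differ by C1A, A12U and C20A, counted from the 5′ end with the base of miR-192-5p first. No other of the 1679 mature names in the table has the seed UGACCUA, and no other has the seed GUAACAG of miR-194-5p. The 5p arm of mir-194 is identical over its 22 bases in both gene copies, so its reads cannot be told apart by copy. The 3p arms of the copies have 18 of 22 bases in common and differ by A8G, C19U, U20C and C22G, with the base of miR-194-1-3p first. The deposited row mir-194 sums both copies and both arms.

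The 4 hairpins are shown with their mature arms in capitals, in the order in which they lie in each cluster.
Mir194-2: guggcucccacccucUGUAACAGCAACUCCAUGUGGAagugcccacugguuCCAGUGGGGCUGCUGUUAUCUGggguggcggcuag
Mir192: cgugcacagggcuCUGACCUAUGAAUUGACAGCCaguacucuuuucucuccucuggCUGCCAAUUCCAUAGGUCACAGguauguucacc
Mir194-1: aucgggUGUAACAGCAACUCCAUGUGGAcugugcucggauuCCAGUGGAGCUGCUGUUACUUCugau
Mir215: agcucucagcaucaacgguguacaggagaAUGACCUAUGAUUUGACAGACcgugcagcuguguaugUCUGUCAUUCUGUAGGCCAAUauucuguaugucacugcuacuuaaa
Mir194-2 (chromosome 19, 6264643 to 6264728) and Mir192 (chromosome 19, 6264844 to 6264932) lay on the plus strand with 115 bases between them. In the GENCODE M21 annotation of GRCm38 this cluster was intergenic, 2307 bases after Atg2a and 3862 bases from the long noncoding RNA Gm14963. Mir194-1 (chromosome 1, 185313319 to 185313385) and Mir215 (chromosome 1, 185313581 to 185313692) lay on the plus strand with 195 bases between them. Mir194-1 was in an intron and Mir215 overlapped exon 2 of the noncoding RNA gene 2010103J01Rik, and both lay opposite to an intron of Iars2, which encodes mitochondrial isoleucyl-tRNA synthetase. In both clusters mir-194 came first.

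Over the mature arms and loop, the predicted folds of Mir192 and its neighbour Mir194-2 were of similar strength per base. Over the whole annotated hairpin, Mir194-2 had the lower energy. From the first to the last mature base, the minimum free energy was -29.6 kcal/mol over 65 bases in Mir192, -26.1 over 58 bases in Mir194-2, -28.4 over 57 bases in Mir194-1 and -22.6 over 58 bases in Mir215. Per base this was -0.455 kcal/mol for Mir192, -0.45 for Mir194-2, -0.498 for Mir194-1 and -0.39 for Mir215, against a median of -0.407 over 644 mouse hairpins with both arms annotated. Over this span Mir192 thus folded more strongly per base than 72.2% of these hairpins, Mir194-2 than 70.0%, Mir194-1 than 84.8% and Mir215 than 41.5%. For the whole annotated hairpins, the minimum free energy was -37.6 kcal/mol over 89 bases in Mir192 and -47.3 over 86 bases in Mir194-2. It was -34.1 over 67 bases in Mir194-1 and -36.7 over 112 bases in Mir215. The stretch between the arms was longer in Mir192, 22 bases, than in Mir194-2 (14), Mir194-1 (13) or Mir215 (16). These are computed properties of the reference sequence and not measurements on these cells.

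Libraries held 2699323 to 4470073 miRNA counts, and spike-in RNAs of a fixed amount took 0.165% to 0.366% of the reads. Levels are given as counts per 1000000 counts (CPM) after TMM scaling, which sets the bulk of miRNAs equal between libraries. The labelled cell type was checked by its miRNAs: the 7 blood and B-lineage markers mir-142a, mir-155, mir-150, mir-181a, mir-223, mir-17 and mir-92a summed to 134400 to 183200 CPM over the libraries, most of it mir-142a, with means of 145300 CPM in control, 139100 in SAFB and 123800 in ERH. Of these 7 markers 2 rose and 3 fell in SAFB, and 1 rose and 5 fell in ERH (edgeR); over all 273 precursors 30.8% rose and 25.3% fell in SAFB, and 26.4% rose and 27.5% fell in ERH. The directions depend on the scaling, since ERH had 72 precursors higher and 75 lower with TMM but 72 and 19 with spike-ins. mir-150, a miRNA of mature lymphocytes, had means of 19.3 CPM in control, 4.91 in SAFB and 9.29 in ERH, and mir-223, a myeloid miRNA, 9612, 17420 and 9216 CPM. The part of these markers in the results was not tested. No library had over 6 counts of the erythroid mir-451a or mir-144. Of 3 muscle markers mir-206 was at 0 throughout, mir-133a had at most 4 counts and mir-1a 1 to 22. The neural mir-9 and mir-124 summed to 4.28 to 15.8 CPM in control, 51.6 to 107.4 in SAFB and 195.3 to 376.4 in ERH, nearly all mir-9. Epithelial miRNAs were present in all groups, summing to 145.3 to 202.6 CPM in control, 198.3 to 230.0 in SAFB and 153.6 to 192.4 in ERH for 8 listed precursors, mostly mir-141 and mir-200a.

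By mean level, mir-192 was above mir-194 in control cells and below it in both knockouts. mir-192 stood at 10.7% of the control mean in SAFB and at 37.7% in ERH. mir-194 stood at 117.0% and 136.0%, and mir-215 was close to absent everywhere.

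In control libraries mmu-mir-192 had 372.4, 427.6 and 472.7 CPM with guide 1 and 387.9, 387.1 and 426.8 CPM with guide 2 (batches 1, 2 and 3 in each list of 3). In SAFB libraries it had 38.5, 34.5 and 57.7 CPM with guide 1 and 50.7, 34.6 and 49.5 CPM with guide 2. In ERH libraries it had 221.1, 228.4 and 100.2 CPM with guide 1 and 114.3, 139.7 and 130.1 CPM with guide 2. The genotypes did not overlap: every control library was above every ERH library, and every ERH library above every SAFB library. This describes values that mir-192 was picked on. How many of the 273 tested precursors are apart in this way was not counted. edgeR called 56.0% of them in SAFB against control, 53.8% in ERH against control and 39.6% between the knockouts. Over 6 libraries each, the mean was 412.4 ± 37.2 CPM (SD) in control, 44.2 ± 9.72 CPM in SAFB libraries and 155.6 ± 55.3 CPM in ERH libraries. By mean level mir-192 ranked 79 of the 1006 precursors in control, 133 in SAFB and 104 in ERH.

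**Figure D1:**
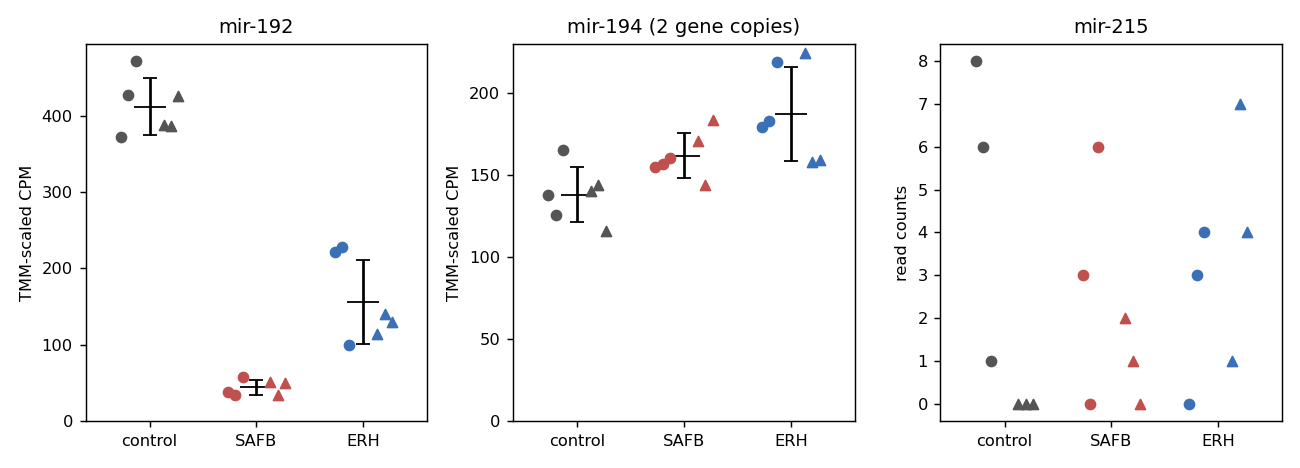
Level of mir-192 and mir-194 in TMM-scaled CPM and read counts of mir-215, 1 point per library (circles guide 1, triangles guide 2, batches 1 to 3 from left to right), with mean and SD over 6 libraries for the first 2 panels. The genotypes are apart for mir-192, with means of 412.4, 44.2 and 155.6 CPM, overlap for mir-194, and mir-215 has at most 8 counts.

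The log2 fold change of mmu-mir-192 against control was -3.22 (SE 0.19) in SAFB and -1.41 (SE 0.18) in ERH, and ERH minus SAFB was 1.82 (SE 0.19), as a description of the values it was picked on. Of the 273 precursors tested, only mir-425 and mir-15a had a lower fold change in SAFB, where mir-192 was the third from the bottom; in ERH it was 14th. The value did not rest on a single guide: across the 4 pairings of a SAFB with a control population the difference of mean log2 CPM was -3.31 to -3.18, and for ERH it was -1.73 to -1.22. Taken within batches 1, 2 and 3, SAFB minus control came to -3.11, -3.56 and -3.07, and ERH minus control to -1.26, -1.19 and -1.98. ERH minus SAFB was 1.85, 2.37 and 1.10 in these batches.

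The counting error of single values was as follows. The lowest mir-192 count, 120 in SAFB guide 2 of batch 2, had an exact Poisson interval of 99.5 to 143.5, and the highest, 1622 in control guide 1 of batch 2, one of 1544 to 1703 (95%, counting error only, since reads may share molecules). The groups were also apart per spike-in. Per 1000 spike-in counts mir-192 gave 116.4 to 213.1 counts in control, 8.93 to 21.5 in SAFB and 39.0 to 103.7 in ERH libraries. On this scale the control guides were apart too, with 116.4 to 156.4 for guide 1 and 175.7 to 213.1 for guide 2. The guides of SAFB and those of ERH overlapped.

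mir-192 varied more between libraries in ERH than in the other genotypes. Its log2 level had an SD of 0.128 over control libraries, 0.313 over SAFB libraries and 0.493 over ERH libraries, the last being the 4th highest of the 153 precursors with at least 100 mean counts, whose median SD in ERH was 0.18. In ERH the libraries of guide 1 in batches 1 and 2 were high, at 221.1 and 228.4 CPM, and that of guide 1 in batch 3 was the lowest of all 6, at 100.2 CPM. In these 3 libraries mir-15a, which is assisted by mir-16, had 214.4, 193.2 and 139.2 CPM, and the mir-29c level was 1816, 1788 and 1473 CPM. There mir-425 had 258.5, 381.7 and 199.5 CPM and mir-23b 701.8, 690.7 and 681.7 CPM. Not lowest in batch 3 were mir-421, with 73.9, 56.6 and 66.3 CPM, and mir-181b, with 651.5, 749.1 and 659.4 CPM. In the ERH libraries of guide 2 mir-15a had 141.9, 225.4 and 149.3 CPM and mir-29c 1839, 1839 and 1369 CPM. The SD of mir-194 in ERH was 0.218, rank 52 of the 153.

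mir-194 was close to its control level in SAFB and somewhat above it in ERH on this scale. In control libraries mmu-mir-194 had 138.0, 125.8 and 165.3 CPM with guide 1 and 140.7, 143.8 and 116.1 CPM with guide 2. In SAFB libraries it had 154.9, 156.8 and 160.7 CPM with guide 1 and 171.2, 144.4 and 183.8 CPM with guide 2. In ERH libraries it had 179.3, 183.2 and 219.5 CPM with guide 1 and 224.8, 158.0 and 159.5 CPM with guide 2. The groups overlapped: 4 of 6 SAFB libraries and 2 of 6 ERH libraries lay within the range of the control libraries, and the other libraries lay above it. Over 6 libraries each, the mean was 138.3 ± 16.8 CPM (SD) in control, 162.0 ± 13.8 CPM in SAFB libraries and 187.4 ± 28.8 CPM in ERH libraries.

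The log2 fold change of mmu-mir-194 against control was 0.23 (SE 0.11) in SAFB, with -0.020 under spike-in scaling, and 0.44 (SE 0.11) in ERH; ERH minus SAFB was 0.21 (SE 0.11). Batch by batch (1, 2 and 3), SAFB libraries were above control by 0.22, 0.16 and 0.31, and ERH libraries by 0.53, 0.34 and 0.43. Per 1000 spike-in counts mir-194 gave 36.4 to 79.2 counts in control, 40.7 to 63.5 in SAFB and 55.3 to 145.3 in ERH. SAFB libraries lay inside the control range on that scale, and 2 of 6 ERH libraries did. mir-122, the defining miRNA of liver, a tissue rich in miR-194, had 4.68 to 8.33 CPM in control, 6.22 to 15.3 in SAFB and 7.67 to 34.2 in ERH libraries, with means of 6.78, 11.6 and 17.1 CPM in the same order of groups as for mir-194. Of the 6 epithelial markers tested, 4 rose in SAFB, where 30.8% of all 273 precursors rose, and 1 in ERH, where 26.4% did (edgeR). The part of the liver, epithelial and neural markers in the mir-194 level was not tested.

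In SAFB against control 56.0% of the 273 precursors passed an adjusted p under 0.05 (edgeR), and of the 2 members tested 1 did, mir-192. In ERH against control 53.8% passed, as did both members, mir-192 lower and mir-194 higher. Directly between ERH and SAFB 39.6% passed, and 1 member, mir-192. Since mir-192 was picked on these contrasts, nothing is read from the counts. The mir-194 status depended on the processing outside ERH against control. Between ERH and SAFB it passed in 4 of 24 alternative settings, with 0.47 under total counts, 0.75 under spike-ins, 0.33 with a mean of at least 100 counts and 0.24 by DESeq2. In SAFB against control it passed in 15 of 24, among them 9 of the 12 omissions of 1 library. It did not pass without control guide 1 of batch 2, control guide 2 of batch 3 or SAFB guide 2 of batch 3. Omitting SAFB guide 1 as a population gave a fold change of 0.45.

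**Figure D2:**
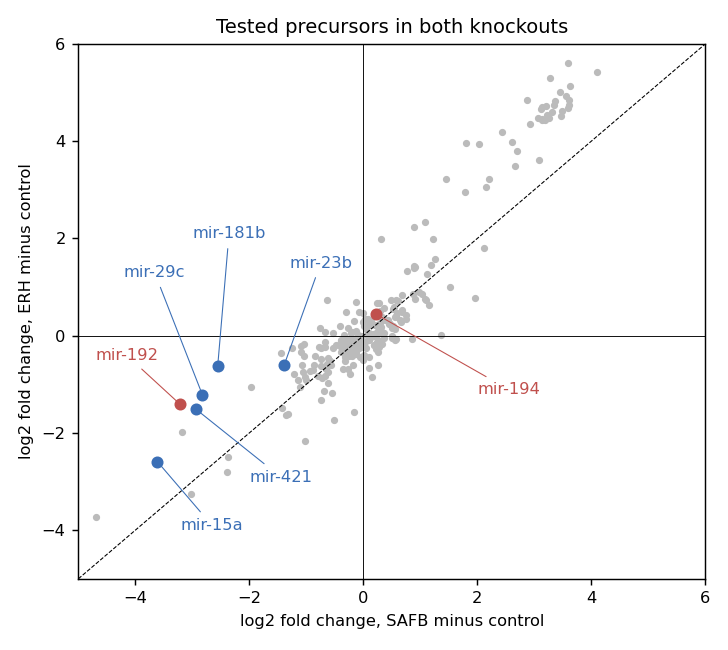
Log2 fold change of the 273 tested precursors, SAFB minus control on the x axis and ERH minus control on the y axis, with the diagonal dashed. mir-192 lies at -3.22 and -1.41, above the diagonal, together with the 5 precursors most like it (blue), and mir-194 lies at 0.23 and 0.44; control libraries are shared by both axes.

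The ratio of mir-192 to mir-194 counts in the same library needs no scaling between libraries. mir-192 had 2.69 to 3.68 reads per mir-194 read in control libraries, 0.22 to 0.359 in SAFB and 0.457 to 1.25 in ERH. The genotypes did not overlap in this ratio, which contains the level mir-192 was picked on. The ratio exceeded 1 in every control library, in no SAFB library and, among ERH libraries, only in guide 1 of batches 1 and 2. On the log2 scale the mean ratio of 6 libraries was 1.58 ± 0.193 (SD) for control, -1.90 ± 0.253 for SAFB and -0.33 ± 0.617 for ERH. SAFB minus control was -3.48 and ERH minus control -1.91, and within batches SAFB gave -3.33, -3.72 and -3.38 and ERH gave -1.78, -1.53 and -2.41. Because the mir-194 row also sums the copy beside mir-215, the ratio does not measure the chromosome 19 cluster alone.

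Other clusters, picked because a hairpin fell in these data beside its neighbour, are set beside it. The sort also selected for loss of miR-15a activity. That all pairs go down in the knockouts therefore follows from the choice. The log2 ratio of mir-15a to mir-16 differed from control by -3.84 in SAFB and -2.34 in ERH, and that of mir-425 to mir-191 by -4.88 in SAFB and -3.72 in ERH. Gene copies are summed in the mir-16 row too, so its ratio does not measure the mir-15a cluster alone. ERH minus SAFB was 1.57 for mir-192 to mir-194, 1.50 for mir-15a to mir-16 and 1.16 for mir-425 to mir-191. Whether these differences differ from each other was not tested. The ERH and SAFB libraries were apart for the pairs with mir-192 and mir-15a, whereas 2 ERH libraries lay in the SAFB range for mir-425 to mir-191.

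**Figure D3:**
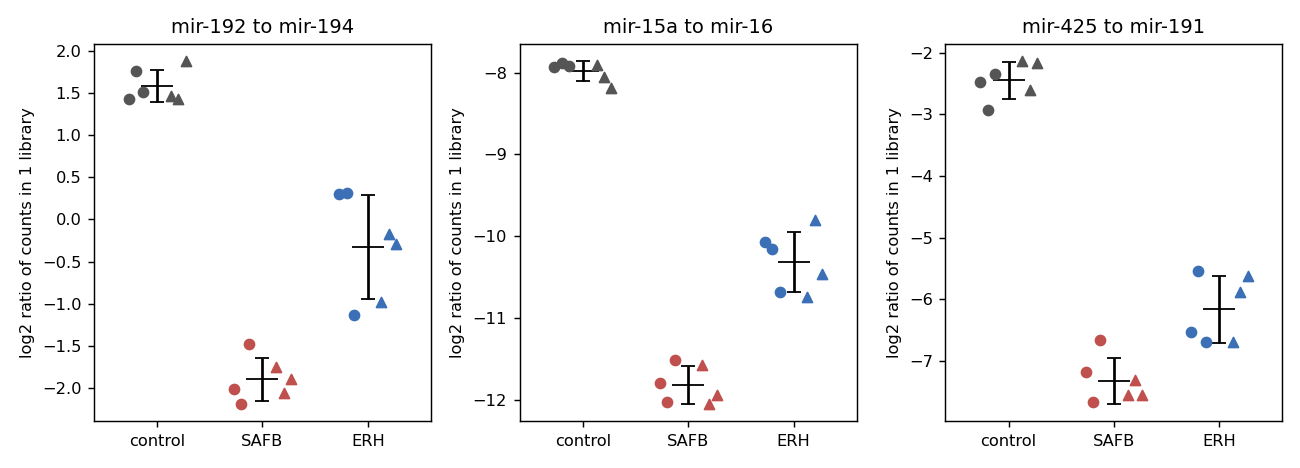
Log2 ratio of the counts of a precursor to those of its cluster neighbour in the same library, 1 point per library (circles guide 1, triangles guide 2), with mean and SD over 6 libraries; the y axes differ. The ratio of mir-192 to mir-194 goes from a mean of 1.58 in control to -1.90 in SAFB and -0.33 in ERH. In each of the 3 pairs both knockouts are below control, which follows from picking pairs with a fallen hairpin.

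mmu-mir-215 was near the limit of detection. Its counts in control libraries were 8, 6 and 1 with guide 1 and 0, 0 and 0 with guide 2. SAFB libraries had 3, 0 and 6 with guide 1 and 2, 1 and 0 with guide 2. ERH libraries had 0, 3 and 4 with guide 1 and 1, 7 and 4 with guide 2. A count of 0 allows up to 3 counts, or 0.717 to 1.14 CPM depending on the library. Summed over 6 libraries the counts were 15 in control (Poisson interval 8.4 to 24.7), 12 in SAFB (6.2 to 21.0) and 19 in ERH (11.4 to 29.7). The intervals overlap, but they cover counting error only and not the spread between libraries, which in control went from 0 to 8 counts. A difference of mir-215 between genotypes was not tested. Set against mir-192, of close sequence, this was 1.9 reads of mir-215 per 1000 of mir-192 in control, 12.1 in SAFB and 5.62 in ERH. These ratios differ mainly in their denominator, since mir-192 summed to 7879, 990 and 3378 counts. How reads that fit both precursors were counted is not given, so some mir-215 reads may belong to mir-192.

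The guides of one genotype offer a comparison that the choice of members did not use. For mmu-mir-192, guide 2 minus guide 1 was -0.082 (SE 0.23, adjusted p = 0.969) in control, 0.050 between SAFB guides (SE 0.25, adjusted p = 0.932) and -0.52 between ERH guides (SE 0.24, adjusted p = 0.714). For mmu-mir-194 it was -0.099 (SE 0.16, adjusted p = 0.969), 0.081 (SE 0.16, adjusted p = 0.932) and -0.10 (SE 0.16, adjusted p = 0.991). Neither member passed the test between guides in any genotype, and with TMM 0% of precursors did in control, 0% in SAFB and 0.366% in ERH, where the 1 precursor was mir-218 (edgeR). With spike-in scaling 96 passed between control guides, 0 between SAFB guides and 110 between ERH guides, though neither member. At an unadjusted p under 0.05 there were 7, 10 and 18, and DESeq2 likewise called 0, 0 and 1. The ERH difference of mir-192 depended on single libraries of guide 1. It was -0.34 (adjusted p = 0.922) without batch 2 and -0.83 (adjusted p = 0.0834) without batch 3, the low library, and over all 13 alternatives its adjusted p was 0.0834 to 0.993. Under spike-in scaling it turned to 0.10, where the median over all 273 precursors between ERH guides was 0.63.

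The log2 ratio of mir-192 to mir-194 was compared between guides in the same way. Guide 2 minus guide 1 was 0.019 in control (exact permutation p = 0.9), -0.013 in SAFB (exact permutation p = 1) and -0.31 in ERH (exact permutation p = 0.6), each two-sided over 3 against 3 libraries, where no p below 0.1 can occur; the adjusted p over the 3 was 1 for each. The ERH value was -0.79 without guide 1 of batch 3, and lay between -0.076 and -0.065 without guide 1 of batch 1, guide 1 of batch 2 or guide 2 of batch 1. For mir-215 the control guides gave 15 and 0 counts. This contrast was tested on CPM after its values were seen (exact two-sided permutation p = 0.1, the smallest possible, adjusted 0.3 over 3 genotypes). The SAFB guides gave 9 and 3 counts (exact permutation p = 0.4 on CPM) and the ERH guides 7 and 12 (exact permutation p = 0.6 on CPM).

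The precursors whose level followed mir-192 most closely were picked by correlation over the 18 libraries, so that they share its order of genotypes follows largely from how they were picked. They were mir-29c (Pearson's r = 0.981 over log2 CPM), mir-23b (0.966), mir-421 (0.963), mir-15a (0.943) and mir-181b (0.941), where the libraries share genotype, guide population and depth. mir-29c went from 3903 CPM in control to 550.6 in SAFB and 1687 in ERH, log2 fold changes of -2.83 and -1.21. mir-421 had fold changes of -2.94 and -1.51, mir-181b of -2.56 and -0.63, mir-23b of -1.39 and -0.60, and mir-15a of -3.61 and -2.59. Among the 273 precursors mir-192 had the 8th highest ERH minus SAFB difference.

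For mir-194 the closest, picked in the same way, were mir-34a (r = 0.811), mir-218 (0.791), mir-9 (0.766), mir-10a (0.759) and mir-101c (0.755) over the same 18 libraries. Among them mir-218 went from 22.3 CPM in control to 214.4 in SAFB and 877.0 in ERH, and mir-9, a neural miRNA, from 9.06 to 65.9 and 259.8 CPM. mmu-mir-101c had log2 fold changes of 0.54 and 0.59, in size the nearest of the 5 to those of mir-194.

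Other miRNAs known to respond to p53 were looked at as a list, and of these only mir-15a passed as lower under all 4 scalings. Nothing about p53 is read from the counts of calls, which are given beside the shares over all precursors. Of 8 such miRNAs, listed with results of these data known, 7 were tested: 3 rose, 1 fell and 3 did not pass in SAFB, and 3 rose, 3 fell and 1 did not pass in ERH (edgeR). Over all 273 precursors 30.8% rose and 25.3% fell in SAFB, and 26.4% rose and 27.5% fell in ERH, and calls were 44 higher and 58 lower in SAFB and 72 and 19 in ERH with spike-ins, and 108 and 33 in ERH with total counts. As a list they had a median log2 fold change of 0.21 for SAFB and 0.14 for ERH, against 0.0083 and -0.061 over all 273 precursors. mir-34a, a main effector of p53, rose by 1.81 in SAFB (adjusted p = 0.0092) and by 3.97 in ERH (adjusted p = 2.3e-06), from 7.60 to 26.5 and 118.1 CPM. Its relatives mir-34b and mir-34c rose in ERH by 0.48 and 0.66 (adjusted p = 0.0094 and 0.00065) and in SAFB stood at -0.075 and 0.27 without passing. mir-143 rose in SAFB by 0.56 (adjusted p = 0.028) and stood at 0.14 in ERH, and mir-107 was at -0.13 in SAFB and fell by 0.16 in ERH (adjusted p = 0.045). mir-15a, which the sort selected for, fell in both, and mir-16 rose in SAFB by 0.21 and fell in ERH by 0.27 (adjusted p = 0.00053 and 2.8e-05). The small values of mir-16 and mir-107 in ERH depended on the scaling: with total counts mir-16 was at 0.028 and mir-107 at 0.14, with spike-ins they were at -0.0016 and 0.13, and none of these passed. In SAFB, spike-in scaling put mir-16 at -0.057 and mir-143 at 0.335, neither passing. mir-34a, mir-34b and mir-34c rose in ERH under all 4 scalings.

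Scaling moved mir-192 and mir-194 by similar amounts on the log2 scale. For ERH against control the median over all 273 precursors was -0.061 with TMM, 0.24 with total counts and 0.23 with spike-ins; for SAFB it was -0.23 with spike-ins. The mir-192 fold change in ERH was -1.10 with total counts and -1.17 with spike-ins. Over all 24 alternatives it stayed between -1.69 and -1.10, while in SAFB it stayed between -3.45 and -3.02. For mir-194 the range was 0.39 to 0.74 in ERH and -0.020 to 0.45 in SAFB.

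**Figure D4:**
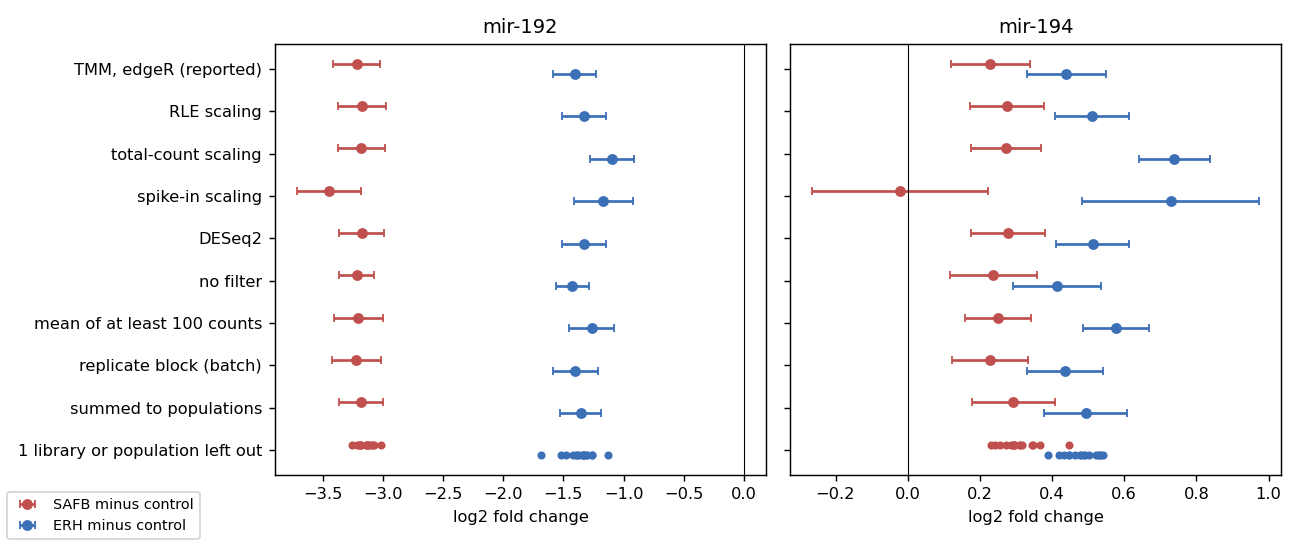
Log2 fold change of mir-192 (left) and mir-194 (right) under each processing setting, SAFB minus control in red and ERH minus control in blue, with bars of 1 standard error; the last line shows fits without 1 library or 1 population. mir-192 is below 0 in every setting, and mir-194 in SAFB lies at -0.020 under spike-in scaling and above 0 in the others.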

How the data were processed

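The authors deposited whole-number read counts per miRNA precursor, not normalized, for 1006 precursors and 4 spike-ins in 18 small RNA libraries; gene copies and arms of a miRNA are summed in 1 row. SAMtools is named in the submitters' processing notes; the aligner, genome build, set of miRNAs, handling of reads shared between hairpins and use of molecular identifiers are not given in the sources used here. Spike-ins were left out of library sizes and tests.

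Counts were fitted with edgeR 4.0.16 (limma 3.58.1, R 4.3.3): filterByExpr by population with a minimum count of 10 left 273 precursors, libraries were TMM-scaled, and the quasi-likelihood test had 1 mean per genotype, or 1 per population for guides, with Benjamini-Hochberg adjustment over all 273 and calls under 0.05. SE is the fold change divided by the square root of F. DESeq2 1.42.0 was an alternative. The fit was tested on simulated data. Ratios and the CPM of mir-215 were compared by exact permutation (scipy 1.17.1), and hairpins were folded with ViennaRNA 2.7.2. Likeness was Pearson's r of log2(CPM + 0.5), the 5 highest being named for each member tested. The members and lists were chosen with earlier results of these data known.

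Pairs of libraries of a population differed by more than sampling noise (chi-square per degree of freedom 27.5 to 157), so none was 1 library deposited again; separate preparations of 1 culture would differ as well. Libraries are paired by the batch number, which the labels give. Deviations from population means correlated by 0.094 on average within a batch (45 pairs of libraries, -0.33 to 0.64) and by -0.047 between batches (90 pairs). The main fit has no batch term.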

Additional observations from a re-analysis of the deposited data

How the results depend on the processing

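Fold changes of mir-192 against control and the genotype differences of its ratio to mir-194 kept their direction in every alternative run, 24 for each fold change and 18 for each ratio, and neither moved by more than the spread between libraries. With the batch as a replicate block, mir-192 was at -3.22 in SAFB, and no member's call changed. Spike-in scaling moved ERH minus SAFB to 2.28 for mir-192 and 0.75 for mir-194, and mir-194 to -0.020 in SAFB and 0.73 in ERH; total counts moved mir-194 to 0.74 in ERH and 0.47 in ERH minus SAFB. Omitting the population SAFB guide 1 gave mir-194 0.45 in SAFB. Calls under spike-in scaling were 91 in ERH against control, 96 between control guides and 110 between ERH guides, against 147, 0 and 1; without the filter the ERH guides gave 4.

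Some guide differences changed sign, among them that of mir-192 in ERH. Spike-in scaling gave 0.56 (mir-192) and 0.55 (mir-194) in control and 0.10 and 0.53 in ERH, where the medians over all 273 precursors were 0.63 in control and 0.63 in ERH, with adjusted p (edgeR) of at least 0.0923, and total counts gave mir-192 -0.026 in SAFB. Leaving out 1 library gave -0.13 to 0.017 (mir-192) and -0.12 to 0.029 (mir-194) in control, -0.12 to 0.30 and -0.020 to 0.18 in SAFB, -0.13 to 0.12 and -0.16 to 0.19 for the ratio in control and SAFB, and 1 to 2 calls between ERH guides. Adjusted p of these guide tests ranged from 0.0834 to 1 over all alternatives. Depth limits mir-215, with 0 to 8 counts a library.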
